A study of Mus musculus with 32 samples.

Results

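The comparison set Pax5+/-;Myd88-/- proB cells, which carry 1 intact Pax5 allele and lack both copies of Myd88, against wild-type (WT) proB cells, and the Pax5+/-;Myd88-/- cells are also called the knockout here. Its members were the 8 arrays whose titles name B220+ bone marrow cells of a healthy mouse of either genotype, 4 arrays each, out of 32 arrays in the series, and the 22369 of 28944 probesets whose gene lies on an autosome. Expression was read on Affymetrix mouse gene arrays from total RNA and is given as deposited log2 levels, so that a difference of 1 is a fold of 2. The 4 arrays of Pax5+/-;Myd88+/- and the 4 of Pax5+/- proB cells were used for the spread between replicates and to place the levels, and each of these genotypes also carries a single intact Pax5 allele.

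The study's mice were on a mixed C57BL/6 and CBA background, were untreated and healthy, and were kept free of specific pathogens until 2 months of age by the labels. The labels describe MACS-sorted B220+ bone marrow cells, while the methods describe proB cultures in IL7 on ST2 stromal feeder cells, started from the marrow of mice 2 to 3 weeks old, and name WT, Pax5+/- and Pax5+/-;Myd88+/- cultures. The Pax5 and Myd88 alleles are germline, so every cell of a mouse carries them, and the feeder cells carry neither. By the methods, the Myd88 allele came from a separate mutant line, whose name includes strains other than C57BL/6 and CBA. The labels call each array a biological replicate and name no mouse, so the p-values measure the spread between these arrays, which may be technical. Whether arrays of a genotype share a mouse or a culture is not stated. In WT cells, and less clearly in Pax5+/- cells, replicates 1 and 3 and replicates 2 and 4 were alike, and if such a pair were 1 sample, n would be 2 a genotype and the SEs and p-values here, the exact permutation p included, would be too small. With the arrays averaged into 2 pairs a genotype, 16 of the named genes lost their call. The pairs were replicates 1 and 3 and replicates 2 and 4, except in Pax5+/-;Myd88-/- cells. There replicate 1 was averaged with 4 and replicate 2 with 3. Each knockout pair thus joined an odd- and an even-numbered array, so a pairing of 1 with 3 and 2 with 4 was not tested in the knockout.

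Pax5 is the transcription factor that commits lymphoid progenitors to the B lineage: it turns on B-cell genes such as the signaling parts of the B-cell receptor and turns off genes of other lineages. Myd88 is the adaptor that Toll-like receptors and receptors of the interleukin-1 family, to which the interleukin-18 receptor belongs, use to recruit Irak kinases and Traf6, which leads to NF-κB and MAP kinase activation. ProB cells are the B-cell precursors that rearrange the immunoglobulin heavy chain and grow in response to IL7.

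The 11 measured proB markers (among them Cd79a, Vpreb1, Igll1, Ebf1 and Il7r) had a median of 11.93 to 12.19 in the Pax5+/-;Myd88-/- arrays and 11.26 to 12.26 in the WT arrays. The lowest marker read 9.87 or more in the Pax5+/-;Myd88-/- arrays and 8.63 or more in the WT arrays. It read 7.84 to 9.07 in the Pax5+/-;Myd88+/- arrays, where it was Dntt, the terminal transferase of V(D)J joining, and 9.82 to 9.94 in the Pax5+/- arrays. Replicates correlated at 0.9969 to 0.9980 in Pax5+/-;Myd88-/- and 0.9906 to 0.9982 in WT cells. The WT arrays fell into pairs, with replicates 1 and 3 at 0.9982, replicates 2 and 4 at 0.9979 and all other WT pairs at 0.9912 or less. Xist, the RNA that coats the inactive X chromosome of females, read 12.49, 12.29, 12.46 and 12.29 in the Pax5+/-;Myd88-/- arrays and 5.65, 5.32, 6.11 and 5.85 in the WT arrays, and the Y-linked Eif2s3y read 4.92, 5.01, 4.93 and 5.01 in the knockout, against 9.45, 9.30, 9.52 and 9.16 in WT. Sex therefore ran with genotype in these 8 arrays. From them alone the effects of sex and genotype cannot be told apart for any gene below. Xist averaged 12.47 in the Pax5+/-;Myd88+/- arrays and 5.76 in the Pax5+/- arrays, and Eif2s3y 5.03 and 9.31. The Pax5+/-;Myd88+/- arrays thus had the sex pattern of the knockout, and the Pax5+/- arrays that of WT. Among the proB arrays, high Xist therefore ran with a targeted Myd88 allele. The part of sex in the differences was not tested. Only autosomal probesets were counted, which leaves out the sex-linked genes themselves.

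The targeted genes followed the labels. Myd88 (chr9:119335934-119340018, mm10) read 7.44, 7.41, 7.04 and 7.38 in replicates 1 to 4 of Pax5+/-;Myd88-/- cells, 8.78, 8.51, 8.69 and 8.59 in Pax5+/-;Myd88+/- cells, 9.27, 9.21, 9.27 and 9.35 in Pax5+/- cells and 9.39, 9.59, 9.22 and 9.63 in WT cells. The knockout arrays all lay below every other array, and the levels were ordered by the number of intact alleles among the Pax5+/- genotypes, with Pax5+/- and WT cells overlapping. The difference between Pax5+/-;Myd88-/- and WT cells was -2.14 ± 0.10 (SE), adjusted p = 2.85e-10 (limma, Benjamini-Hochberg), which left 22.7% of the WT level. It was 2-sided exact permutation p = 0.0286, the smallest that 4 against 4 arrays allow. Which Myd88 exons the probes cover was not examined here, so the remaining signal has no further reading.

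Pax5 (chr4:44524748-44710694) read 11.05, 10.96, 10.93 and 10.88 in Pax5+/-;Myd88-/- cells and 11.53, 11.81, 11.63 and 11.81 in WT cells, with no overlap. The difference of -0.74 ± 0.11 (SE), adjusted p = 0.00016 left 59.9% of the WT level, with an exact permutation p = 0.0286 (2-sided), again the smallest possible. It passed the test but not the fold of 2 and is therefore not among the called genes. With all 32 arrays in the limma fit Pax5 did not pass the test (adjusted p = 0.579). The difference was still -0.74 there, but the spread was also taken over leukemias and sorted WT precursors. The same holds for every call lost with all 32 arrays below. Pax5+/- cells averaged 11.12 and Pax5+/-;Myd88+/- cells 11.21, and the Pax5+/-;Myd88-/- cells did not differ from either at the threshold (difference -0.16, adjusted p = 0.355 and -0.26, adjusted p = 0.134).

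**Figure D1:**
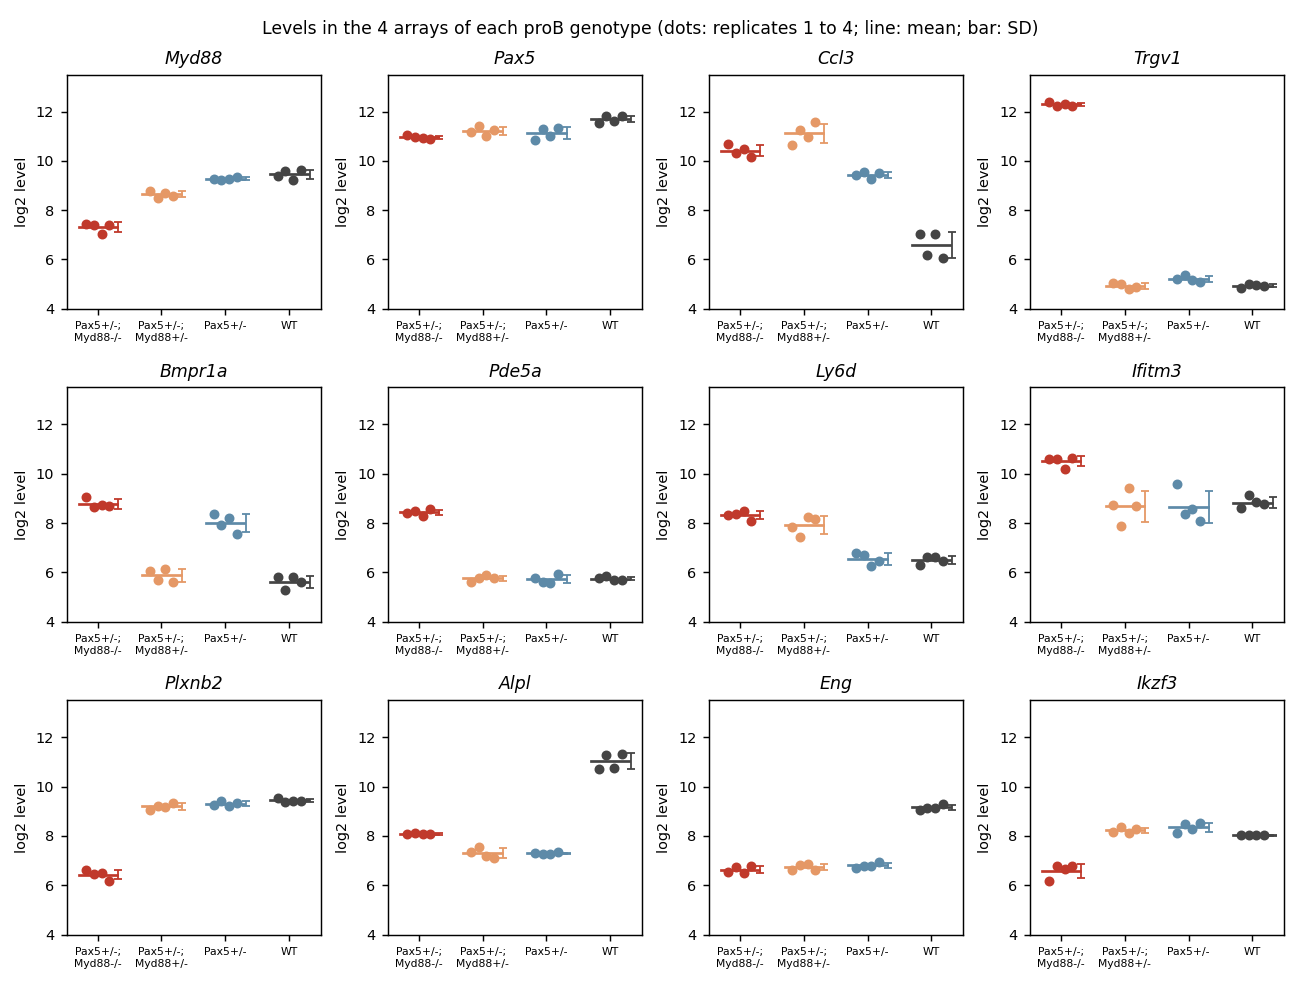
Log2 level of 12 genes in the 4 arrays of each proB genotype, as dots for replicates 1 to 4 with the mean (line) and SD (bar). Myd88 steps down with its intact alleles, Trgv1, Pde5a and Ifitm3 stand high and Plxnb2 and Ikzf3 low in Pax5+/-;Myd88-/- cells, and Ccl3, Alpl and Eng set all 3 Pax5+/- genotypes apart from WT.

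Across the autosomes, 259 probesets were called (adjusted p under 0.05 and a fold over 2), 1.16% of 22369. Of these, 189 were higher (0.845%) and 70 lower (0.313%) in Pax5+/-;Myd88-/- than in WT cells. Taken as 1 probeset for each of 19167 genes, 158 genes were higher (0.824%) and 62 lower (0.323%), which is 1.15% in either direction, while the median difference over all autosomal genes was -0.04. A difference of at least 2 on the log2 scale was reached by 29 probesets called higher and 12 called lower. Without the fold threshold, 1531 genes passed the test upward and 1280 downward, together 14.7%, and in 21.1% of all genes the 8 arrays of the 2 genotypes did not overlap. Just inside the fold threshold lay Spcs1, Rida and Znrd1 at 1.01, and just outside it the probesets of Uqcrb, Ndufb5 and Rpl38 at 1.00. None of 345 small RNA probesets and none of 30 histone probesets was called by limma, though 62 and 20 of them had an unadjusted p under 0.05.

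**Figure D2:**
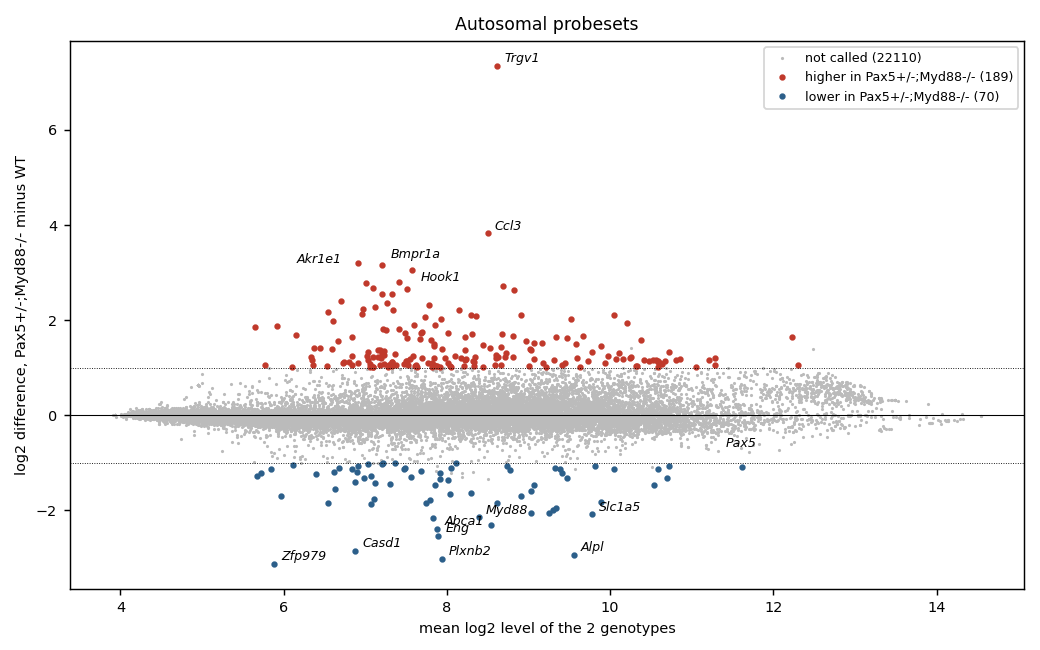
Log2 difference (Pax5+/-;Myd88-/- minus WT) of each autosomal probeset against the mean log2 level of both genotypes, with the 189 probesets called higher in red and the 70 called lower in blue. Trgv1 stands alone at 7.35, followed by Ccl3 at 3.82, and Zfp979 and Plxnb2 mark the lower end.

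The feature furthest from WT was Trgv1 (chr13:19340016-19340454), a variable segment of the T-cell receptor gamma chain. It read 12.39, 12.24, 12.29 and 12.24 in Pax5+/-;Myd88-/- cells, against 4.86, 5.02, 4.97 and 4.91 in WT cells. The 4 knockout arrays were alike and far above all others, since Pax5+/-;Myd88+/- cells averaged 4.93 and Pax5+/- cells 5.20. The difference from WT was 7.35 ± 0.07 (SE), adjusted p = 2.48e-19, that from Pax5+/- cells 7.09, adjusted p = 4.38e-19, and that from Pax5+/-;Myd88+/- cells 7.36, adjusted p = 2.42e-19. Trdv2-2, a delta-chain segment, was higher as well (6.16 to 6.45 in Pax5+/-;Myd88-/- and 5.05 to 5.35 in WT cells, difference 1.06, adjusted p = 2.38e-07), although it fell just under the fold of 2 without WT replicate 3 (0.99). Trav14-1, an alpha-chain segment, differed by 1.41 (adjusted p = 0.000576) but stood at 9.21 in Pax5+/- cells, above the 7.08 of Pax5+/-;Myd88-/- cells. Segments of these families are close in sequence, and how far probes bind neighboring segments was not tested. They are named here because of their values. Of the 24 measured genes of T and NK cells, Klrd1 (CD94, a lectin receptor of NK cells) was called, and the list had a median difference of -0.02 and a summed level (log2) of 11.40 to 11.44 in Pax5+/-;Myd88-/- and 11.04 to 11.24 in WT arrays.

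Klrd1 read 8.11, 7.63, 8.12 and 7.77 in Pax5+/-;Myd88-/- cells and 7.27, 5.49, 7.63 and 5.82 in WT cells, so that the groups overlapped and the WT arrays were split by more than the difference (1.36 ± 0.40 (SE), adjusted p = 0.0289). It lost its call without Pax5+/-;Myd88-/- replicate 1, 3 or 4 (1.29, 1.28 and 1.40, adjusted p = 0.0798, 0.0686 and 0.0545) or without WT replicate 2 or 4 (1.00 and 1.11, adjusted p = 0.0911 and 0.0951). Lat, an adaptor of T-cell receptor signaling, passed the test under the fold threshold with 9.39 in the knockout, against 8.68 in WT. So did Nkg7, a granule protein of cytotoxic cells, with 7.32 in the knockout, against 6.42 in WT, and without WT replicate 1 the list held 2 called members.

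Among the genes with the largest rises, Ccl3 (chr11:83647843-83649378), a chemokine that attracts monocytes and T cells and a gene that Pax5 is known to repress, read 10.68, 10.30, 10.49 and 10.17 in Pax5+/-;Myd88-/- cells and 7.02, 6.20, 7.05 and 6.08 in WT cells. The groups lay far apart, 3.82 ± 0.22 (SE), adjusted p = 5.36e-09, a fold of 14.2. Ccl3 was also high in Pax5+/- (9.43) and Pax5+/-;Myd88+/- cells (11.11), and the knockout differed from Pax5+/- cells by 0.98, adjusted p = 0.00915. Tspan2, a tetraspanin of the cell surface, and St3gal5, which makes the ganglioside GM3, were likewise high in every Pax5+/- genotype. St3gal5 averaged 10.05 ± 0.09 in Pax5+/-;Myd88-/- and 7.33 ± 0.09 in WT cells (SD, n = 4 each), with 10.27 in Pax5+/- cells. Tspan2 averaged 10.14 ± 0.05 in the knockout and 7.51 ± 0.61 in WT, with 10.95 in Pax5+/- cells. Hook1, which links cargo to microtubules, averaged 9.10 in the knockout, 8.59 in Pax5+/- and 6.05 in WT cells (knockout minus WT 3.05, knockout minus Pax5+/- 0.50, adjusted p = 0.000447). Akr1e1, an aldo-keto reductase, read 8.76, 8.55, 8.37 and 8.34 in Pax5+/-;Myd88-/- cells and 5.40, 5.21, 5.12 and 5.51 in WT cells, with Pax5+/- and Pax5+/-;Myd88+/- cells in between at 7.32 and 7.27. Egln3, a prolyl hydroxylase that marks hypoxia-inducible factors for degradation, lay in the same way. Its mean was 8.48 in the knockout, 7.92 with 1 Myd88 allele left, 7.41 in Pax5+/- cells and 5.93 in WT.

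Other rises were set apart from the remaining Pax5+/- genotypes. Pde5a, the phosphodiesterase that degrades cyclic GMP, read 8.42, 8.48, 8.28 and 8.55 in Pax5+/-;Myd88-/- cells and 5.76, 5.84, 5.70 and 5.70 in WT cells, and it averaged 5.72 in Pax5+/- and 5.75 in Pax5+/-;Myd88+/- cells. It was thus high only in the 4 arrays without Myd88 (difference from Pax5+/- cells 2.72, adjusted p = 1.65e-12). Ccdc198 averaged 8.40 ± 0.37 in Pax5+/-;Myd88-/- and 5.61 ± 0.33 in WT cells, with 6.64 in Pax5+/-;Myd88+/- and 5.83 in Pax5+/- cells. Dnah8, an axonemal dynein chain, and Fnbp1l, a membrane-bending protein of the actin pathway, were picked after their values were seen. Dnah8 averaged 8.60 in the knockout, 6.54 with 1 Myd88 allele left, 6.01 in Pax5+/- cells and 6.04 in WT. Fnbp1l averaged 8.45 in the knockout, 6.27 with 1 Myd88 allele left, 6.28 in Pax5+/- cells and 6.23 in WT.

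In 3 of the top rises the Pax5+/-;Myd88+/- cells, and not the Pax5+/- cells, lay nearer WT. Bmpr1a (chr14:34411061-34503336), a type I receptor of bone morphogenetic proteins, read 9.06, 8.64, 8.72 and 8.69 in Pax5+/-;Myd88-/- cells and 5.80, 5.29, 5.81 and 5.61 in WT cells, with 8.01 in Pax5+/- and 5.88 in Pax5+/-;Myd88+/- cells (3.15 ± 0.17 (SE), adjusted p = 2.42e-09 against WT). Pgr, the progesterone receptor, averaged 8.82 ± 0.13 in Pax5+/-;Myd88-/- and 6.01 ± 0.09 in WT cells, with 9.94 in Pax5+/- and 6.02 in Pax5+/-;Myd88+/- cells. The zinc-finger gene Zfp507 averaged 8.83 ± 0.02 in the knockout and 6.18 ± 0.02 in WT, with 8.51 in Pax5+/- cells and 6.37 with 1 Myd88 allele left. The order of these means did not follow the number of Myd88 alleles.

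Among the largest falls, Plxnb2 (chr15:89155546-89182018), a plexin that serves as a receptor of semaphorins, read 6.60, 6.44, 6.51 and 6.16 in Pax5+/-;Myd88-/- cells and 9.55, 9.38, 9.40 and 9.43 in WT cells. Pax5+/- and Pax5+/-;Myd88+/- cells stood near the WT level at 9.30 and 9.19, so the low level was found only in the 4 arrays without Myd88. The difference from WT was -3.01 ± 0.09 (SE), adjusted p = 1.56e-12, which left 12.4% of the WT level. Slc1a5, the main glutamine transporter of growing cells, averaged 8.74 ± 0.06 in Pax5+/-;Myd88-/- and 10.82 ± 0.20 in WT cells, with 10.18 in Pax5+/- and 10.20 in Pax5+/-;Myd88+/- cells. Mctp1, a calcium-binding protein with C2 domains, averaged 6.76 ± 0.26 in the knockout and 8.91 ± 0.96 in WT, with WT arrays at 9.70, 8.06, 9.79 and 8.09. Gas7, which was named for its chromosomal window and acts on the cytoskeleton, averaged 8.36 in the knockout, with 10.49 in Pax5+/- cells and 10.30 in WT.

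Alpl, Eng and Abca1 were low in all Pax5+/- genotypes. Alpl (chr4:137741731-137796384), tissue-nonspecific alkaline phosphatase, read 8.08, 8.13, 8.06 and 8.07 in Pax5+/-;Myd88-/- cells and 10.72, 11.30, 10.76 and 11.31 in WT cells (-2.94 ± 0.12 (SE), adjusted p = 9.24e-11). Its level was lower still in Pax5+/- (7.29) and Pax5+/-;Myd88+/- cells (7.30), a difference (knockout minus Pax5+/-) of 0.80, adjusted p = 0.000493. Eng (chr2:32646595-32682669), endoglin, a co-receptor of TGF-beta ligands, read 6.52, 6.73, 6.48 and 6.76 in Pax5+/-;Myd88-/- cells and 9.07, 9.13, 9.13 and 9.31 in WT cells, with 6.80 in Pax5+/- cells. Abca1, which exports cholesterol from cells, averaged 6.69 ± 0.04 in Pax5+/-;Myd88-/- and 9.07 ± 0.62 in WT cells, with 6.64 in Pax5+/- cells. Zfp979, a zinc-finger gene, and Casd1, which acetylates sialic acids, were low in the Pax5+/-;Myd88-/- and Pax5+/-;Myd88+/- arrays, which are those with high Xist. Zfp979 averaged 4.33 and 4.44 there, with 7.80 in cells that had only the Pax5 deletion and 7.44 in WT. Casd1 averaged 5.45 in the knockout and 5.48 with 1 Myd88 allele left, with 7.25 in Pax5+/- cells and 8.30 in WT. The arrays with high Xist are also those with a targeted Myd88 allele. Whether these differences go with sex or with that allele was not tested. Garem1, an adaptor of growth factor receptors, averaged 7.38 in the knockout, 7.80 in Pax5+/- cells and 9.69 in WT. The Pax5+/-;Myd88+/- cells were nearer WT at 8.97.

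The receptors upstream of Myd88 did not move as a group. Of 17 measured Toll and interleukin-1 family receptors, 3 were called higher, none lower, and the median was -0.01. The shares over all genes were 0.824% called higher and 0.323% lower. Il18r1, the ligand-binding chain of the interleukin-18 receptor, read 8.63, 8.50, 8.65 and 8.58 in Pax5+/-;Myd88-/- cells and 7.28, 6.66, 7.29 and 6.83 in WT cells (1.58 ± 0.23 (SE), adjusted p = 0.000184), with 10.36 in Pax5+/- cells. Its signaling partner Il18rap read 10.66, 10.63, 10.45 and 10.65 in Pax5+/-;Myd88-/- cells and 9.75, 8.94, 9.67 and 9.02 in WT cells. These genes lie next to each other on chromosome 1, and for both the odd-numbered WT arrays were the higher ones. Ly96, the MD-2 co-receptor of Tlr4, averaged 7.79 ± 0.35 in the knockout and 6.77 ± 0.33 in WT, and fell under the fold of 2 without Pax5+/-;Myd88-/- replicate 2 or 4 (0.99 and 0.90) or WT replicate 4 (0.86). Among the 14 receptors not called the difference ran from -0.45 for Il1rap, the shared chain of interleukin-1 receptors, to 0.36. Tlr9, a sensor of unmethylated DNA, passed the test with 8.28 in Pax5+/-;Myd88-/- and 8.68 in WT cells. With all 32 arrays in the fit the calls of Il18r1, Il18rap and Ly96 were lost (adjusted p = 0.383, 0.188 and 0.0618).

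Downstream, Myd88 itself was the sole called member of 19 genes of the Myddosome and its adaptors (median -0.04), and the other 18 ranged from -0.45 for Tirap, which bridges Toll-like receptors to Myd88, to 0.40 for Irak3, an inhibitory kinase of the family. None of 22 NF-κB subunits, kinases and inhibitors was called by limma (8 had an unadjusted p under 0.05), with a median of -0.11. The largest change was in Nfkbid, a nuclear inhibitor protein of NF-κB, with 8.54, 8.72, 8.38 and 8.72 in Pax5+/-;Myd88-/- and 8.03, 8.24, 7.89 and 8.22 in WT cells (0.50 ± 0.10 (SE), adjusted p = 0.00234). Of 30 inflammatory targets of NF-κB only Ccl3 was called and the median was -0.02. Of 25 immediate-early genes, which respond within minutes to stimulation, Fosb was called and the median was 0.20. Fosb, an AP-1 subunit, read 9.88, 9.22, 9.75 and 9.23 in Pax5+/-;Myd88-/- and 7.30, 8.19, 7.66 and 8.13 in WT cells. Beside it, 8 members passed the test upward under the fold threshold. Examples were Dusp1, a phosphatase of MAP kinases, at 9.69 in the knockout, against 8.74 in WT, and Jun at 10.58, against 9.93 in WT. Nr4a1, a nuclear receptor, passed the test downward. With Fosb, 9 of 25 passed upward, against 7.99% of all genes. A further member was called without Pax5+/-;Myd88-/- replicate 4 or WT replicate 3 (2 of 25).

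Of 46 interferon response genes, 1 was called (median -0.02). Ifitm3, which blocks the entry of viruses into cells, read 10.61, 10.58, 10.21 and 10.62 in Pax5+/-;Myd88-/- cells and 8.59, 9.12, 8.85 and 8.77 in WT cells (1.67 ± 0.30 (SE), adjusted p = 0.00123), and exceeded Pax5+/- cells by 1.85, adjusted p = 0.000684. Its neighbors Ifitm1 and Ifitm2 passed the test under the fold threshold, with 12.06 and 11.56 in Pax5+/-;Myd88-/- cells and 11.27 and 10.68 in WT cells. In the opposite direction, Gbp3, a guanylate-binding protein, averaged 8.84 in the knockout and 9.62 in WT. Innate sensors and effectors outside the lists, named after their values were seen, were called in either direction: Aim2, a sensor of cytosolic DNA, read 8.57, 8.06, 8.32 and 8.25 in Pax5+/-;Myd88-/- and 10.35, 10.23, 10.33 and 10.26 in WT cells, while Ripk3, the kinase of necroptosis, averaged 9.24 in the knockout and 7.82 in WT and Casp1, the inflammasome protease, 6.94 in the knockout and 5.72 in WT. Apobec3, a cytidine deaminase that restricts retroviruses, was called in each of its 2 probesets (1.59 and 1.51). On the brighter one Pax5+/-;Myd88+/- cells were at 11.39 and Pax5+/- cells at 9.46, against 11.18 in Pax5+/-;Myd88-/- cells. Apobec3 was thus high in the arrays with high Xist, which are also those with a targeted Myd88 allele.

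Genes that Pax5 is known to activate were lower more often than higher under the fold threshold. Of 33 measured, 1 was called lower and none higher, 11 passed the test downward and 2 upward without the fold threshold, and the median was -0.15, against 6.68% of all genes that passed downward and 7.99% upward. Ikzf3 (chr11:98464610-98546031), the Ikaros family factor Aiolos that rises at the preB stage, read 6.16, 6.78, 6.64 and 6.76 in Pax5+/-;Myd88-/- cells and 8.02, 8.04, 8.02 and 8.02 in WT cells (-1.44 ± 0.12 (SE), adjusted p = 3.63e-07). Its mean was 8.35 in Pax5+/- and 8.22 in Pax5+/-;Myd88+/- cells, so the low level was seen only in the cells without Myd88 (-1.77, adjusted p = 3.42e-08 against Pax5+/- cells). Among the members under the fold threshold, Irf8 and Spib, factors of B-cell development, averaged 9.04 and 8.78 in Pax5+/-;Myd88-/- cells and 9.66 and 9.39 in WT cells. The direction of Bst1, a surface ectoenzyme, and Id3, an inhibitor of E proteins, was the same (-0.94 and -0.71), and 2 members were called lower when Pax5+/-;Myd88-/- replicate 1 or 3 or WT replicate 2 or 4 was left out.

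Of 32 genes that Pax5 is known to repress, 10 passed the test upward and 1 downward without the fold threshold. Over all genes these shares were 7.99% and 6.68%. The median of the list was 0.04, with 1 member called lower and 4 called higher (0.323% and 0.824% of all genes). Beside Ccl3 these were Fcgr3, a low-affinity receptor of immunoglobulin G on myeloid cells, at 8.24, 8.08, 8.01 and 8.14 in Pax5+/-;Myd88-/- cells and 6.33, 6.34, 6.26 and 6.30 in WT cells, Flt3, the receptor tyrosine kinase of early progenitors, and Rgs2, a regulator of G-protein signaling. Flt3 read 10.47, 10.45, 10.40 and 10.47 in Pax5+/-;Myd88-/- cells and 9.37, 8.92, 9.26 and 8.91 in WT cells (1.33 ± 0.10 (SE), adjusted p = 8.02e-08), and was near this level in Pax5+/- cells too (10.22). Rgs2 read 9.05, 8.60, 8.81 and 8.75 in the knockout, against 8.40, 6.87, 8.39 and 6.90 in WT cells, with the higher WT values in replicates 1 and 3. The member called lower was Ccr2, a chemokine receptor of monocytes, at 8.26, 7.83, 7.96 and 7.96 in Pax5+/-;Myd88-/- cells and 10.73, 9.47, 10.68 and 9.35 in WT cells (-2.06 ± 0.25 (SE), adjusted p = 2.84e-05). Ccr2 averaged 7.69 with 1 Myd88 allele left and 10.41 in Pax5+/- cells, and it lies on chromosome 9 within 5 Mb of Myd88. It was thus low in the arrays with high Xist, which are also those with a targeted Myd88 allele. The part of sex or of that allele was not tested.

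**Figure D3:**
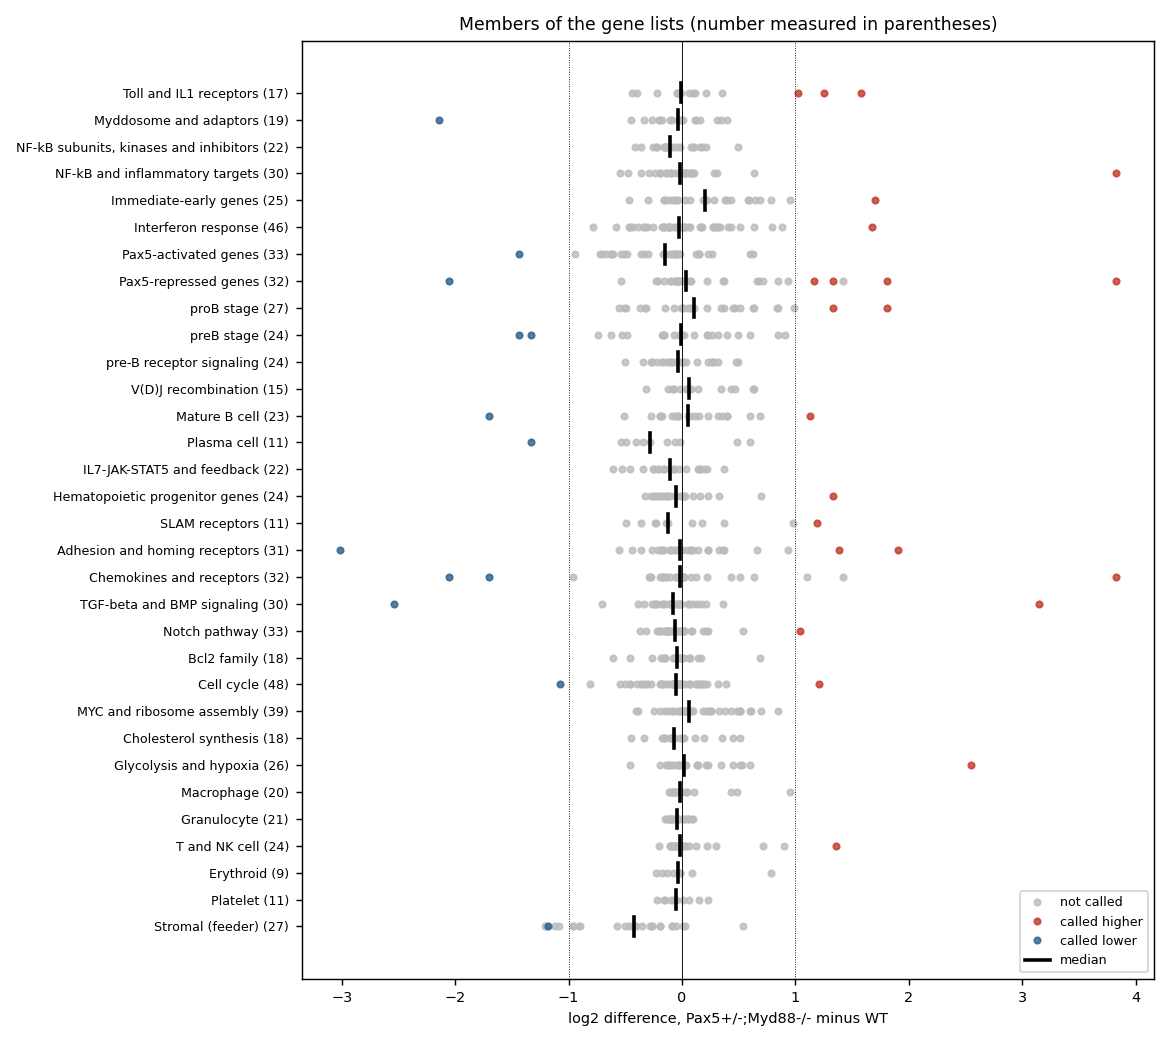
Log2 difference (Pax5+/-;Myd88-/- minus WT) of each measured member of 32 gene lists, with called members in red or blue and the median as a bar. The medians lie between -0.43 and 0.20, and grey points beyond the dotted lines at a difference of 1 in either direction did not pass the test.

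Genes of B-cell stages changed one by one, while 0.824% of all genes were called higher and 0.323% lower. Of 27 proB genes, Ly6d, a surface protein that marks B-lineage commitment, and Flt3 were called higher and none lower (median 0.11). Ly6d read 8.34, 8.37, 8.47 and 8.09 in Pax5+/-;Myd88-/- cells and 6.31, 6.63, 6.64 and 6.47 in WT cells. Pax5+/- cells were at the WT level (6.55) and Pax5+/-;Myd88+/- cells near the knockout (7.93). The high arrays were thus those with high Xist and with a targeted Myd88 allele. The calls of Ly6d and Flt3 were lost with all 32 arrays in the fit (adjusted p = 0.243 and 0.0866). Of 24 preB genes, Ikzf3 and Mzb1 were lower and none higher (median -0.01). Mzb1, a chaperone of immunoglobulin assembly that was also the sole called member of 11 plasma cell genes (median -0.28), read 9.97 to 10.16 in the 4 arrays of Pax5+/-;Myd88-/- cells and 11.44, 11.29, 11.50 and 11.19 in WT cells (-1.33 ± 0.11 (SE), adjusted p = 3.2e-07). Of 24 genes of pre-B receptor signaling none was called by limma (9 had an unadjusted p under 0.05), with a median of -0.04 and the largest change in Rasgrp1, an activator of Ras, at 10.49 in Pax5+/-;Myd88-/- and 10.99 in WT cells. Of 15 genes of V(D)J recombination none was called (5 had an unadjusted p under 0.05, median 0.06). Rag1, a subunit of the recombinase, read 12.02, 11.80, 11.98 and 11.88 in Pax5+/-;Myd88-/- cells and 11.87, 10.65, 11.86 and 10.76 in WT cells, so that it was level with WT replicates 1 and 3 and above replicates 2 and 4 (difference 0.64 ± 0.23 (SE), adjusted p = 0.0743).

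Of 23 mature B-cell genes, Cd52, a small surface glycoprotein, was called higher and Cxcr5, the receptor that guides B cells to follicles, lower (median 0.05). Cxcr5 read 5.19, 5.19, 5.05 and 5.05 in Pax5+/-;Myd88-/- cells and 6.33, 7.62, 5.97 and 7.36 in WT cells, and it was as low in Pax5+/- cells (5.34). Cd52 averaged 11.14 ± 0.13 in the knockout and 10.02 ± 0.50 in WT, and lost its call without WT replicate 4 (0.97, adjusted p = 0.0527). Of 22 genes of IL7 and JAK-STAT5 signaling none was called by limma (5 had an unadjusted p under 0.05), and the largest change was in the survival gene Bcl2, with 9.77, 10.14, 9.68 and 10.26 in Pax5+/-;Myd88-/- and 9.56, 11.61, 9.61 and 11.50 in WT cells (-0.61 ± 0.37 (SE), adjusted p = 0.311). Here too the WT arrays were in pairs, and only replicates 2 and 4 lay above the knockout. Within the even-numbered arrays alone the difference in Bcl2 was -1.35 and that in Rag1 was 1.14, a setting added after the values were seen. Of 18 Bcl2 family genes none was called (3 had an unadjusted p under 0.05), and the largest rise was in Pmaip1, the death activator Noxa, at 8.26 in the knockout, against 7.58 in WT. Among 24 progenitor genes only Flt3 was called (median -0.06).

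Of 31 adhesion and homing receptors, Itga5 and Itga6 were called higher and Plxnb2 lower (median -0.02). Among all genes 0.824% were called higher and 0.323% lower. Itga5, the alpha chain of the fibronectin receptor, read 8.89, 8.81, 8.64 and 8.88 in Pax5+/-;Myd88-/- cells and 7.18, 6.73, 6.96 and 6.75 in WT cells, and stood at the same level in Pax5+/- cells (8.82). Itga6, an alpha chain of laminin receptors, read 8.86, 8.94, 8.52 and 9.31 in the knockout, against 7.85, 7.35, 7.54 and 7.36 in WT cells, with Pax5+/- cells at 7.30, so its rise was seen only without Myd88 (1.60, adjusted p = 2.16e-05), and its call against WT was lost with all 32 arrays (adjusted p = 0.0608). Of 11 SLAM receptors, Cd48 was called, with 9.66 in the knockout, 6.58 in Pax5+/- cells and 8.47 in WT, and 2 were called without Pax5+/-;Myd88-/- replicate 2 or WT replicate 1 or 3. Among 32 chemokines and receptors the called members were Ccl3, Ccr2 and Cxcr5, and 2 rather than 1 were higher without WT replicate 1 or 3. Of 30 genes of TGF-beta and BMP signaling, Bmpr1a was higher and Eng lower (median -0.08), and of 33 Notch pathway genes Psenen, a subunit of gamma-secretase, was higher (10.84 in the knockout, against 9.80 in WT), under the fold of 2 without WT replicate 4 (0.94). Smo, the signal-transducing receptor of the Hedgehog pathway and on no list, was lower at 7.70 in Pax5+/-;Myd88-/- and 9.54 in WT cells.

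Of 48 cell cycle genes, 1 was higher and 1 lower (median -0.06), and 10 passed the test downward and 3 upward without the fold threshold. Over all genes 6.68% passed downward and 7.99% upward. Cdkn2a, which encodes the inhibitors p16Ink4a and p19Arf, read 9.81, 10.39, 10.25 and 10.32 in Pax5+/-;Myd88-/- cells and 9.13, 9.12, 8.75 and 8.95 in WT cells (1.20 ± 0.11 (SE), adjusted p = 1.76e-06). It exceeded Pax5+/- cells (8.06) by more, 2.14, adjusted p = 2.26e-09. In the other direction E2f2, which drives entry into S phase, averaged 8.20 in the knockout and 9.27 in WT. None of 39 genes of MYC and ribosome assembly was called by limma (9 had an unadjusted p under 0.05), but Mxd4, a MYC antagonist, which read 10.52, 10.49, 10.54 and 10.46 in Pax5+/-;Myd88-/- and 10.52, 8.79, 10.41 and 8.92 in WT cells, passed without WT replicate 1 or 3 (1.13 and 1.09). None of 18 cholesterol synthesis genes was called (5 had an unadjusted p under 0.05, median -0.07), with Msmo1, a sterol oxidase, at 0.51. Among 26 genes of glycolysis and hypoxia only Egln3 was called (median 0.02).

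Genes of the respiratory chain were higher together. These families were defined by gene symbol after the values had been seen. Of 88 nuclear genes of oxidative phosphorylation, 8 were called higher and none lower, 51 passed the test upward and 1 downward without the fold threshold, 83 had a difference above 0 (38.1% of all autosomal genes did), and the median difference was 0.56 (0.50 from Pax5+/- and 0.52 from Pax5+/-;Myd88+/- cells). In 79.5% of them the 2 genotypes did not overlap, against 21.1% of all genes. Among all genes 0.824% were called higher, and 7.99% passed upward and 6.68% downward without the fold threshold. The called members were Ndufa4, Ndufa2, Ndufb2 and Ndufb9, which carry the symbols of NADH dehydrogenase, Uqcrb of complex III, and Atp5d, Atp5h and Atp5md of the ATP synthase. Atp5d read 10.94, 11.12, 10.56 and 10.86 in Pax5+/-;Myd88-/- cells and 9.44, 10.08, 9.45 and 9.61 in WT cells (1.22 ± 0.24 (SE), adjusted p = 0.00287), and Ndufb9 averaged 10.30 ± 0.17 in the knockout and 9.15 ± 0.24 in WT. The median level of the family was 10.12, 10.07, 9.95 and 10.13 in the Pax5+/-;Myd88-/- arrays and 9.45, 9.64, 9.50 and 9.43 in the WT arrays. Replicate 1 of Pax5+/- cells reached 10.04, within the range of the knockout, while the other 3 Pax5+/- arrays lay at 9.25 to 9.41. Of the Pax5+/-;Myd88+/- arrays, replicates 3 and 4 read 9.84 and 9.72, above every WT array, and the other 2 lay below every WT array. Of the 8 calls, 5 were lost when 1 array was left out, namely those of Ndufa4 without WT replicate 4 (1.18, adjusted p = 0.0563), Uqcrb (0.99) and Ndufa2 (0.99) without the same array, Ndufb2 without Pax5+/-;Myd88-/- replicate 4 or WT replicate 4 (0.97 and 0.98), and Atp5md without Pax5+/-;Myd88-/- replicate 1 or 4 or WT replicate 4 (1.14, 1.10 and 1.07, adjusted p = 0.0542, 0.059 and 0.0593).

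The other 3 housekeeping families moved the same way with smaller differences. Of 62 cytosolic ribosomal protein genes none was called at the brightest probeset of each, but 40 passed the test upward and none downward, with a median of 0.41, which was 0.16 after another quantile normalization. Of 77 mitochondrial ribosomal protein genes 2 were called higher, 25 passed upward and 1 downward, and the median was 0.30. For this family replicate 3 of Pax5+/-;Myd88+/- cells, at 8.92, lay within the range of the knockout arrays (8.91 to 9.10). Of 39 proteasome subunit genes none was called, 9 passed upward and none downward, and the median was 0.30. The shares over all genes were 0.824% called higher, 7.99% passing upward and 6.68% downward. Over all autosomal genes the median level was 7.05 to 7.14 in the Pax5+/-;Myd88-/- and 7.09 to 7.16 in the WT arrays.

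**Figure D4:**
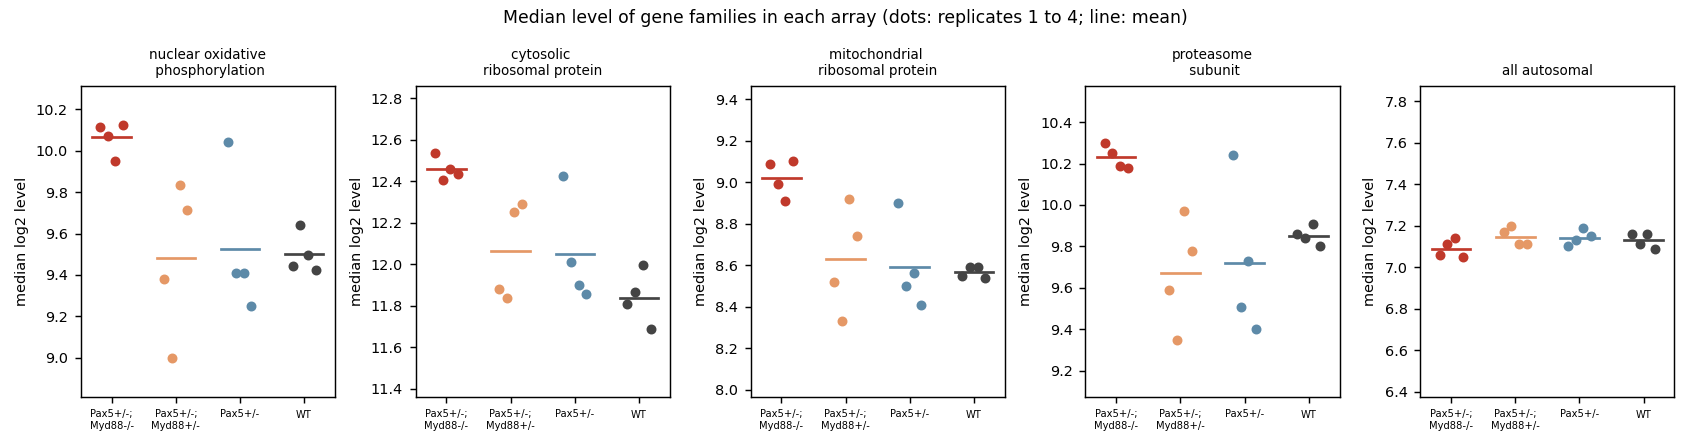
Median log2 level of 4 gene families and of all autosomal genes in each array, with each panel spanning 1.5 log2 units. The 4 Pax5+/-;Myd88-/- arrays lie above the 4 WT arrays in each family but not over all autosomal genes, and replicate 1 of Pax5+/- lies near the knockout.

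The called markers of other cells were Klrd1 (T and NK), Cd52 and Cxcr5 (mature B cell), Mzb1 (plasma cell) and Postn (stromal). The share of all autosomal genes called in either direction was 1.15%. Without the fold threshold, 5 of 11 plasma cell genes passed the test downward and 1 upward. Of 23 mature B-cell genes 5 passed upward and 2 downward. Upward and downward counts were 4 and 0 of 24 T and NK genes and 1 and 4 of 27 stromal genes. Of macrophage and erythroid genes 1 each passed upward, and of granulocyte and platelet genes none. Over all genes 7.99% passed upward and 6.68% downward. None of 20 macrophage genes was called by limma (2 had an unadjusted p under 0.05), although Lyz2, lysozyme, read 8.99, 8.71, 8.68 and 8.75 in Pax5+/-;Myd88-/- and 8.65, 6.84, 8.76 and 7.08 in WT cells and passed without WT replicate 1 or 3 (1.22 and 1.26). None of 21 granulocyte genes was called (2 had an unadjusted p under 0.05, the largest difference -0.15 in Epx), none of 11 platelet genes (4 had an unadjusted p under 0.05, 0.22 in Itgb3) and none of 9 erythroid genes (1 had an unadjusted p under 0.05, 0.79 in Car2, carbonic anhydrase). In each of the 11 lists in which limma called no gene, the methods' t-test called none either. It could not, since no member of these lists reached the fold of 2 that both rules require. The summed levels (log2) were 11.46 to 11.58 in the Pax5+/-;Myd88-/- and 11.07 to 11.43 in the WT arrays for macrophage genes, 10.44 to 10.58 in the knockout and 10.50 to 10.55 in WT for granulocyte genes, 10.06 to 10.22 in the knockout and 10.09 to 10.25 in WT for platelet genes, and 12.55 to 12.70 in the knockout and 12.55 to 12.94 in WT for erythroid genes. Those of the mature B-cell list were 13.65 to 13.73 in the knockout and 13.27 to 13.59 in WT, and those of the plasma cell list 11.79 to 11.91 in the knockout and 12.45 to 12.57 in WT. The sums of the macrophage, mature B-cell and T and NK lists were thus higher and that of the plasma cell list lower in each Pax5+/-;Myd88-/- array than in any WT array, and their part in the other differences was not tested.

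The 27 stromal genes, written as markers of feeder cells, had a median of -0.43 and a summed level (log2) of 13.48 to 13.69 in Pax5+/-;Myd88-/- and 13.46 to 14.30 in WT arrays, and Postn, the matrix protein periostin, was called lower. Postn read 6.23 to 6.37 in Pax5+/-;Myd88-/- cells and 6.88 to 8.04 in WT cells, and its call ended without any 1 of the 4 Pax5+/-;Myd88-/- arrays or of WT replicates 1 and 3 (adjusted p = 0.0854 to 0.119). With the replicate number as a block, or with odd or even number as a term, 5 of the 27 genes were called lower, within the odd-numbered arrays 9 and within the even-numbered arrays none. In all 4 genotypes replicates 1 and 3 held more of these genes than replicates 2 and 4. Fibronectin (Fn1) read 9.42, 8.67, 9.34 and 8.60 in Pax5+/-;Myd88-/- cells and 10.90, 9.39, 10.78 and 9.44 in WT cells, and Col1a1, a chain of type I collagen, 9.21, 8.94, 9.25 and 8.85 in the knockout, against 10.54, 9.38, 10.49 and 9.44 in WT cells. Both odd-numbered arrays were above both even-numbered ones in 13 of 27 stromal genes in Pax5+/-;Myd88-/- cells and in 21 of 27 in WT cells, against 17.5% and 31.1% of all genes. In such arrays fewer cells of a type and less RNA per cell cannot be told apart. The stromal level ran with the WT arrays of Abca1 (9.52 and 9.69 in replicates 1 and 3, 8.49 and 8.59 in replicates 2 and 4), and in the opposite sense with those of Alpl and Cxcr5, while Eng and Plxnb2 were level in all 4 WT arrays. Its part in these results was not tested. Within the odd-numbered arrays alone 179 autosomal probesets were called higher and 111 lower, and within the even-numbered ones 322 and 81.

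**Figure D5:**
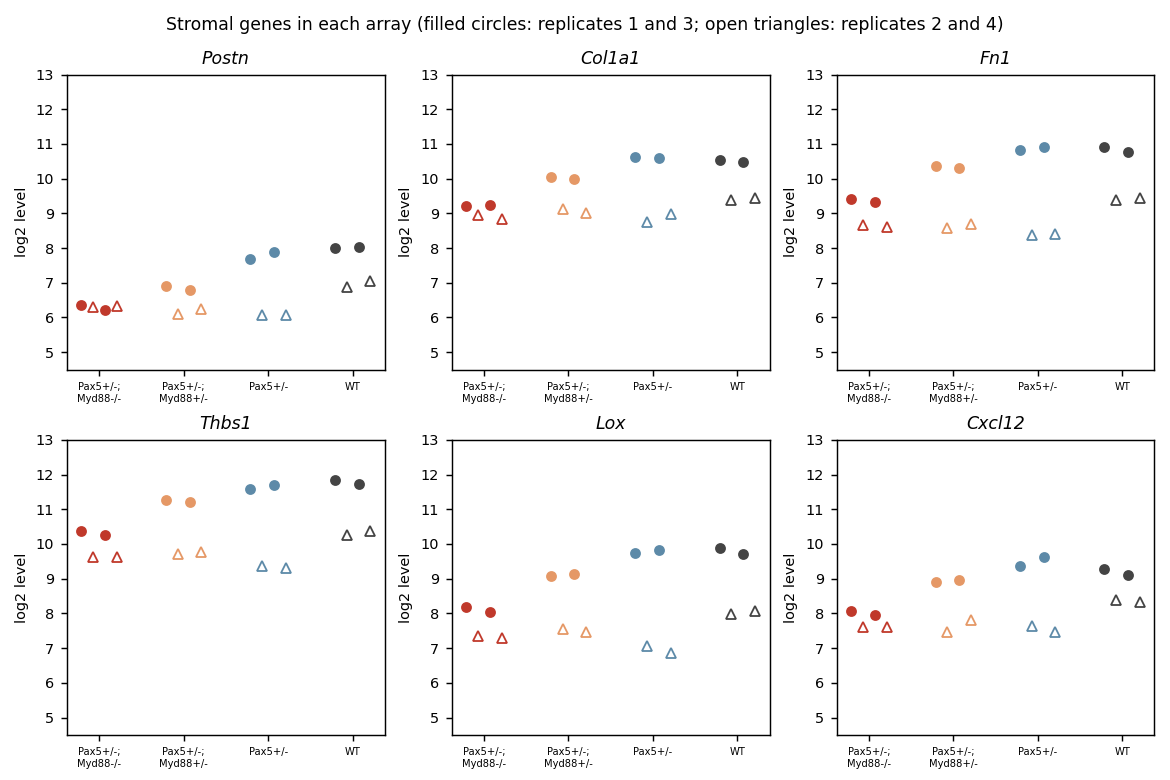
Log2 level of 6 stromal genes in each array, with replicates 1 and 3 as filled circles and replicates 2 and 4 as open triangles. The circles lie above the triangles in every genotype for Col1a1, Fn1, Thbs1, Lox and Cxcl12, and all Pax5+/-;Myd88-/- arrays lie below WT replicates 1 and 3.

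Along the chromosomes the called genes were spread over all autosomes, from 0.437% of the genes tested on chromosome 5 to 2.42% on chromosome 14. The share over all autosomal genes was 1.15%. Of 500 windows of 5 Mb, 338 held none and 10 held 3 or more. The fullest was chr14:50000001-55000000, where 6 of 115 genes were called, namely Trav14-1, Trdv2-2, Dad1, a subunit of the oligosaccharyltransferase, and Mrpl52, a mitochondrial ribosomal protein, as higher, and Rnase12, of the ribonuclease A family, and Ccnb1ip1, a meiotic ubiquitin ligase, as lower. Rnase12 read 8.31, 7.75, 8.25 and 7.93 in Pax5+/-;Myd88-/- cells and 9.68, 9.83, 9.76 and 9.74 in WT cells, and only 6.10 in Pax5+/- cells, so the knockout lay between the other genotypes. Ccnb1ip1 averaged 5.63 in the knockout and 7.46 in WT, Dad1 11.78 in the knockout and 10.63 in WT, and Mrpl52 9.12 in the knockout and 8.06 in WT.

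In chr11:65000001-70000000, 4 of 98 genes were called: Gas7 and Myh10, the heavy chain of nonmuscle myosin IIB, as lower, and Trappc1, of a vesicle tethering complex, and Naa38, of an N-terminal acetyltransferase, as higher. Myh10 read 8.89, 9.02, 8.96 and 9.03 in Pax5+/-;Myd88-/- cells and 10.21, 11.41, 10.08 and 11.50 in WT cells. Trappc1 averaged 9.22 in the knockout and 7.97 in WT, and Naa38 9.72 in the knockout and 8.71 in WT, with Naa38 under the fold of 2 without Pax5+/-;Myd88-/- replicate 2 (0.95) or WT replicate 2 or 4 (1.00 and 0.97). In chr4:10000001-15000000, 3 of 23 genes were called, all higher: Cibar1 and Tmem67, which act at the primary cilium, and Rbm12b2, an RNA-binding protein. Cibar1 averaged 8.02 in Pax5+/-;Myd88-/- and 5.89 in WT cells, Rbm12b2 9.17 in the knockout and 7.45 in WT, and Tmem67 7.71 in the knockout and 6.49 in WT, and in each the Pax5+/- cells (8.37, 8.91 and 7.30) were nearer the knockout.

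Around the targeted loci, 4 of 108 other genes within 5 Mb of Myd88 were called (3.7%, against 1.15% of all genes), and 22 passed the test without the fold threshold (20.4%, against 14.7% of all genes). They were Higd1a, a protein of the inner mitochondrial membrane, as higher, and Ccr2, 1700048O20Rik and 4930520O04Rik as lower. 1700048O20Rik read 8.62, 7.95, 8.29 and 8.10 in Pax5+/-;Myd88-/- and 10.38, 9.17, 10.39 and 9.35 in WT cells, 4930520O04Rik 5.32, 5.06, 5.30 and 5.42 in the knockout, against 6.13, 6.63, 6.26 and 6.63 in WT cells, and Higd1a averaged 8.56 in the knockout and 7.47 in WT. The targeted Myd88 allele came from a separate mouse line, and sequence differences between the alleles around Myd88 were not examined. Within 5 Mb of Pax5 none of 133 other genes was called (16 passed the test without the fold threshold, 12%).

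Promoters of the called genes were searched for 4 motifs in the 250 bases before each start site, on both strands, in the RefSeq sequences of GRCm38.p6, which hold 27025 genes, 127 of the genes called higher and 49 of those called lower. The Pax5 core GCGTGAC was in 1 promoter of the genes called higher and none of the lower ones, with 2.07% of all genes. The Ebf1 site (TCCC, any 2 bases, GGGA) was in 4 of the genes called higher and 2 called lower (0.914% of all genes), the kappaB site (GGG, any 2 bases, TTTCC) in 2 called higher and none called lower (1.65%), and the interferon-response element (GAAA, any 2 bases, GAAA) in 3 called higher and 2 called lower (3.46%). These are matches of letters and no evidence of binding. Printed here for their matches are stretches of the promoters of Myd88 (called lower) and Apobec3 (called higher), with an interferon-response match, and of Hacd1 and Tspan2 (called higher), with an Ebf1 match. Capitals mark the matches to the motifs. Hacd1, an elongation enzyme of very long fatty acids, read 8.20, 8.10, 8.18 and 8.13 in Pax5+/-;Myd88-/- and 6.68, 6.17, 6.31 and 6.27 in WT cells, and its promoter holds the Ebf1 match and the Pax5 core side by side.
Myd88 (chr9:119340019-119340103, minus strand): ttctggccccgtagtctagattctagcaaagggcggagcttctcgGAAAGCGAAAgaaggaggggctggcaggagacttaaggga
Apobec3 (chr15:79892223-79892322, plus strand): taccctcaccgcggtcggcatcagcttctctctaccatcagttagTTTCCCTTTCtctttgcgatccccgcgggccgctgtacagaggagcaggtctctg
Hacd1 (chr2:14056108-14056207, minus strand): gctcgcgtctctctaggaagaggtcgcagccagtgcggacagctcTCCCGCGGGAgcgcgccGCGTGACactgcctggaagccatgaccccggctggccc
Tspan2 (chr3:102735059-102735158, plus strand): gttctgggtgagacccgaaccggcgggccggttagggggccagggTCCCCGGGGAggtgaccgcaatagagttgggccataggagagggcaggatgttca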

How the data were processed

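Total RNA, of MACS-sorted B220+ cells by the labels, was labeled and hybridized to Affymetrix mouse gene arrays. The authors processed the arrays to gene-level log2 values by RMA (background correction, quantile normalization and median polish) in Transcriptome Analysis Console on genome mm10, and the deposited log2 values have 2 decimals. Whether all 32 arrays were normalized together is not given in the sources used here. The number of arrays limits the precision. Probesets were named through the platform annotation: 21789 name 1 gene, 1621 several and 5534 none. Positions and autosomes came from RefSeq (GRCm38.p6).

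limma 3.58.1 (R 4.3.3) was fitted to the 16 arrays of 4 proB genotypes, with Pax5+/-;Myd88-/- minus WT as the contrast and Benjamini-Hochberg adjustment over all 28944 probesets. Probesets with a fold over 2 and an adjusted p below 0.05 were called. For lists, the probeset with the highest mean stood for a gene. The fit was tested on simulated data. Named genes were Myd88, Pax5, the 10 largest rises and falls with 1 name and no overlap (small RNA, mitochondrial, histone, receptor segment and predicted genes left out), up to 4 called members of each list or the largest change where none was called, and the called genes of the 3 fullest windows. The members and the 32 lists, written from general knowledge, were chosen with earlier results of these data known. Same-numbered arrays of both genotypes deviated from their group means together (r = 0.16, 0.22, 0.16 and 0.12). The numbers were therefore treated as pairs in an alternative fit. Knockout replicate 1 also correlated with WT replicate 3 at 0.15, 2 with 4 at 0.18, 3 with 1 at 0.17 and 4 with 2 at 0.21. For knockout replicates 3 and 4 these values exceeded those with the same-numbered WT array. The arrays thus matched by odd or even number, and a pairing of single numbers was not shown.

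Alternatives were other sets of arrays, centring, another quantile normalization, the replicate block, the methods' t-test, weights for arrays, limma-trend, dropping probesets with a mean under 6, other thresholds, averages of array pairs and leaving out each array. The odd-even term and the fits within odd- or even-numbered arrays were added after the values were seen. Sorted cells and leukemias were not described here.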

Additional observations from a re-analysis of the deposited data

Results flagged for a closer look

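In 158 groups of 4 arrays, the named genes in either genotype, 5 had an array apart from the other 3 by Dixon's criterion, which chance gives in about 5 of 100 groups. In Pax5+/-;Myd88-/- cells, replicate 3 was lowest in Myd88 (7.04), Ifitm3 (10.21) and Il18rap (10.45), and replicate 1 highest in Mzb1 (10.16). In WT cells, replicate 2 was highest in Ikzf3 (8.04), where the other 3 WT arrays all read 8.02.

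Outside the autosomal probesets, Xist averaged 12.38 in the Pax5+/-;Myd88-/- arrays and 5.73 in the WT arrays, with 12.47 in Pax5+/-;Myd88+/- and 5.76 in Pax5+/- cells.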

How the results depend on the processing

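Counts of 189 autosomal probesets higher and 70 lower moved by over 1.5 times in 3 settings. With no fold threshold they were 2195 and 1428 (1531 and 1280 genes, 82 and 73 list members), and Pax5, at -0.74, then passed. Within the odd-numbered arrays 111 probesets, 101 genes and 22 list members were lower. Within the even-numbered arrays 322 probesets, 258 genes and 33 list members were higher. List members called higher numbered 19, and 11 with all 32 arrays. The replicate block gave 188 higher and 79 lower and changed the call of no named gene, while the stromal list held 5 genes called lower instead of 1. Leaving out 1 array gave 161 to 232 higher and 67 to 73 lower probesets, 138 to 193 and 59 to 65 genes, 14 to 25 and 8 to 10 list members, Myd88 at -2.22 to -2.05 and Pax5 at -0.80 to -0.70. Bcl2, not called, was -0.61 over all arrays and 0.14 within the odd-numbered arrays, and no other named gene changed direction in these settings. Of 66 named genes called besides Myd88, 54 kept the call whichever array was left out and 37 in every other setting, with 16 calls lost in the averaged pairs, 18 within the odd-numbered arrays, 10 with all 32 arrays and 5 after another quantile normalization. The methods' t-test gave 191 higher and 73 lower at the study's thresholds and 181 and 64 after Benjamini-Hochberg adjustment. Arrays averaged into 2 pairs a genotype gave 149 higher and 56 lower, and Pax5 then had an adjusted p of 0.0502.

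Limits of all values here are the 4 arrays a genotype and the confounding of sex and genotype in the 8 arrays compared. Probesets as the unit and stromal genes that vary between arrays limit them too.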
